A study of Mus musculus with 21 samples.

Results

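CD8 T cells of mice fed a methionine-restricted (MR) diet were compared with CD8 T cells of mice fed a control diet, by messenger RNA sequencing. The comparison rests on 6 of the 21 mouse libraries of the series, 3 labelled control and 3 labelled MR, chosen by their column names in the table of T cell counts, and on all 13509 genes which that table lists. The other libraries are labelled as model tumour cells. They came from tumours of MC38, a mouse colon carcinoma line (4 control, 4 MR), and BPD6, a mouse melanoma line (4 control, 3 MR). These libraries enter here where the effect of diet in T cells is set against that in tumours. The columns used for BPD6 carry another model name, GEMM6, and replicate numbers unlike those of the sample titles, and the title of their sheet alone ties them to BPD6. By its title, the series asks how restricting dietary methionine affects T cells and tumours. The cells are described as splenic, while the sample labels give the cell type but not the organ. The labels give no genotype, strain, sex, age, methionine content or length of feeding, and do not say whether the T cell donors carried tumours. They also do not say that replicates came from separate animals, so the p-values measure the spread between these libraries, which may be technical.

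CD8 T cells recognise peptides on MHC class I and, once activated, divide and kill the cells that present them. Methionine is an essential amino acid: it starts every new protein, and through S-adenosylmethionine it supplies the methyl groups for DNA, RNA and histones. Activated T cells take it up in large amounts. Resting T cells in the spleen express adhesion and survival genes, and respond to interferon, glucocorticoid, temperature and protein-folding stress through separate transcription programmes, which the gene lists below follow.

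The libraries held 15739038.5 to 19562590 counts with the control diet and 15733774.5 to 16361572 with MR. Levels are given as CPM, counts put on a common library size and scaled for library composition by the TMM method, and differences as log2 fold changes of MR over control ± SE. A gene is said to have risen or fallen when edgeR's quasi-likelihood test, adjusted by the Benjamini-Hochberg method over the 12348 genes tested, gave p under 0.05. The T cell label held against its defining markers. Cd8a, the CD8 alpha chain, was at 1585, 1619 and 1299 CPM in control replicates 1, 2 and 3 and at 1409, 1189 and 1484 CPM in MR replicates 1, 2 and 3. Cd8b1, the beta chain, was at 316, 355 and 291 against 536, 427 and 326 CPM. Cd3e, a chain of the T cell receptor complex, was at 161, 156 and 88.9 against 264, 132 and 143 CPM. All 3 genes had overlapping groups, and none of the 13 tested members of the CD8 T cell list changed (median log2 fold change 0.01, the same as over all genes tested). Summed over that list, the level was 8271 to 8802 CPM with control and 7450 to 8178 CPM with MR, lower in each MR library. Cd4 lay between 1.74 and 4.58 CPM in all 6 libraries. Foxp3, the regulator of regulatory T cells, was at 101, 102 and 125 CPM with control and 48.5, 92.7 and 63.8 CPM with MR (log2 fold change -0.68 ± 0.20, edgeR adjusted p = 0.0998).

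Between the diets 174 genes changed, or 1.41% of those tested. Of these, 73 rose with MR (0.591%) and 101 fell (0.818%), and 2140 genes had an unadjusted p under 0.05. The number depended on single libraries. Leaving out MR replicate 1 gave 7 calls, leaving out control replicate 1 gave 36, and leaving out MR replicate 2 gave 290. Of the 59 called genes named here, 7 passed under each of 13 other settings, which are Trnp1, Nudt14, Syt6, Slc14a1, Zc3h6 and Cirbp among those that rose and Lman2l among those that fell. None of the 59 changed direction under any of those settings. In each of them all MR libraries lay on the same side of all controls. Leaving out a library could therefore hardly turn the direction, and its constancy adds no support. Without control replicate 1, 23 of them passed.

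**Figure D1:**
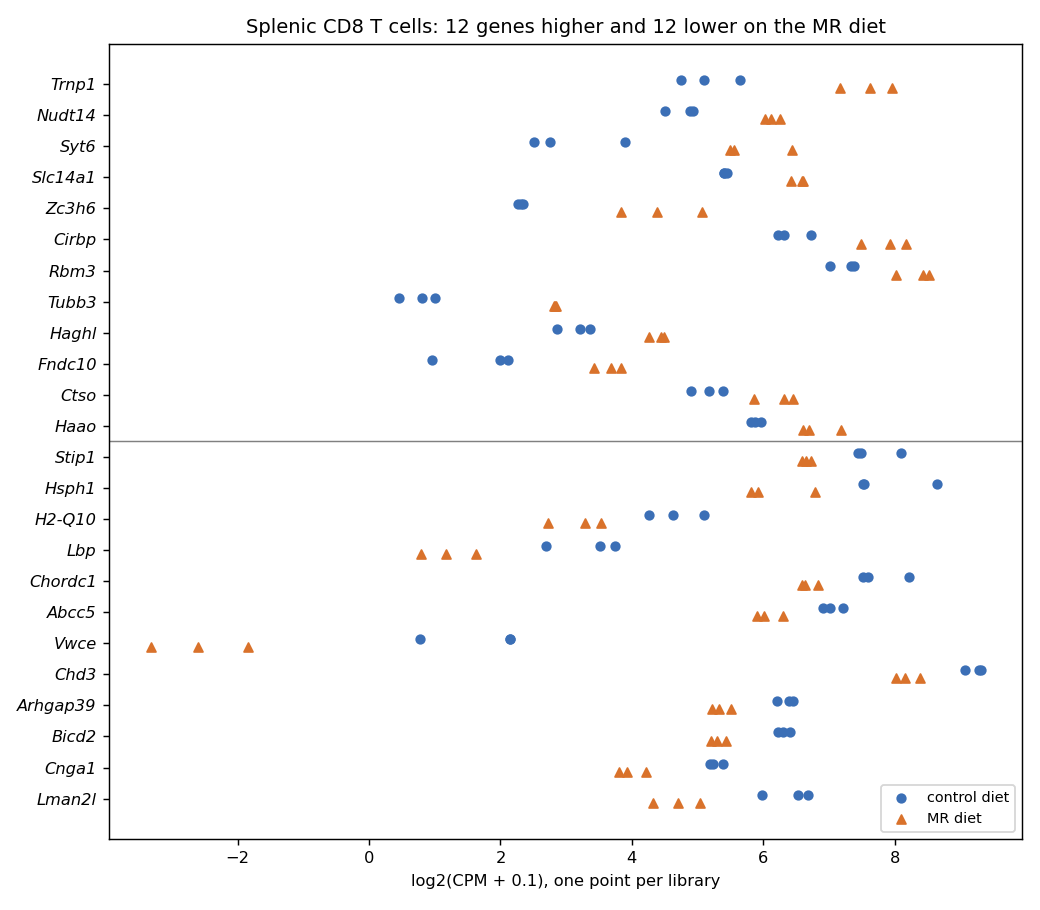
Levels of the 12 genes of lowest p that rose (above the line) and the 12 that fell (below it) as log2(CPM + 0.1), with 1 circle for each control library and 1 triangle for each MR library. In each of these genes the 3 MR libraries lie on one side of the 3 control libraries, a property used to choose them.

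The genes of lowest p that rose with MR had little in common by known function. Trnp1, a nuclear protein known from neural progenitors, was at 49.9, 34.0 and 26.9 CPM in the control libraries and 249, 196 and 143 CPM in the MR libraries (log2 fold change 2.41 ± 0.23, edgeR adjusted p = 0.000309). The lowest MR library was well above the highest control library. Nudt14, a hydrolase of UDP-glucose, was at 22.5, 30.4 and 29.5 against 65.2, 69.1 and 76.3 CPM (1.36 ± 0.16, edgeR adjusted p = 0.00143). Syt6, a synaptotagmin of vesicle fusion, was at 14.8, 6.68 and 5.58 against 86.8, 44.9 and 46.8 CPM (2.71 ± 0.33, edgeR adjusted p = 0.00143). In both genes the 3 MR libraries lay apart from the controls, and MR replicate 1 was the highest for Syt6.

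Slc14a1, the urea transporter of red cells and kidney, was at 42.2, 43.4 and 42.4 CPM with control and 95.7, 85.6 and 96.7 CPM with MR (1.12 ± 0.14, edgeR adjusted p = 0.00155). Its control libraries were almost level, so the difference was large beside the spread. Zc3h6, a CCCH zinc finger protein, was at 4.88, 4.99 and 4.70 against 33.5, 14.2 and 20.8 CPM (2.23 ± 0.29, edgeR adjusted p = 0.00195), with the MR libraries more spread than the controls. The remaining genes of this group, other than Cirbp and Rbm3 described below, were Tubb3 (2.12 ± 0.35), a beta tubulin, Haghl (1.25 ± 0.21), a relative of glyoxalase II, Fndc10 (1.91 ± 0.32), Ctso (1.07 ± 0.18), a lysosomal cysteine protease, and Haao (0.97 ± 0.17), an enzyme of NAD synthesis from tryptophan. Their edgeR adjusted p ranged from 0.0125 to 0.0128, and all 5 lost the call without MR replicate 1 (0.0962 to 0.153).

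Among the genes that fell, Lman2l, a lectin that carries glycoproteins from the endoplasmic reticulum, was at 103, 92.6 and 63.0 CPM in the control libraries and 20.0, 25.8 and 32.7 CPM in the MR libraries (-1.72 ± 0.21, edgeR adjusted p = 0.00143). Every MR library was below every control library. Bicd2, an adaptor that links dynein to its cargo, was at 78.6, 74.9 and 85.1 against 36.6, 39.1 and 43.0 CPM (-1.01 ± 0.14, edgeR adjusted p = 0.00475). Chd3, the ATPase of a NuRD chromatin remodelling complex, was at 621, 636 and 538 against 284, 260 and 333 CPM (-1.03 ± 0.16, edgeR adjusted p = 0.00971). For both genes the spread inside each group was small beside the gap between them. Vwce, a secreted von Willebrand factor C domain protein, was at 4.32, 4.34 and 1.61 CPM with control and at 0, 0.0652 and 0.180 CPM with MR, too few counts for a stable fold.

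Others that fell were Cnga1 (-1.28 ± 0.18), a cyclic nucleotide gated channel subunit, Arhgap39 (-0.99 ± 0.15), a GTPase activator, Abcc5 (-0.97 ± 0.16), an exporter of cyclic nucleotides and organic anions, Lbp (-2.18 ± 0.36), the lipopolysaccharide binding protein, and H2-Q10 (-1.49 ± 0.25). H2-Q10 is a non-classical MHC class I gene whose close copies could share reads with it. Their edgeR adjusted p lay between 0.00319 and 0.0125, and all 5 lost the call without MR replicate 1 (0.0637 to 0.138). The other 3 of the 12 genes that fell with the lowest p, Hsph1, Chordc1 and Stip1, belong to the heat shock chaperones.

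Cytosolic heat shock chaperones were lower with MR. These proteins fold new and damaged proteins, and heat shock factor 1 (Hsf1) drives many of their genes through arrays of the heat shock element. Of 37 tested members of the list, which includes their mitochondrial partners, 11 fell and none rose, beside 0.818% of all genes that fell. This list and those below were chosen with earlier results of these data known. A share above that of all genes can therefore be partly set by that choice. The list's median log2 fold change was -0.40, beside 0.01 over all genes tested. In 22 of the 37 members the MR libraries lay wholly below the controls, as in 10.9% of all genes. Summed over the list, the level was 10779, 8964 and 9662 CPM in control replicates 1, 2 and 3 and 6416, 7336 and 6748 CPM in MR replicates 1, 2 and 3, so the groups did not overlap.

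Hsph1, an Hsp110 that recharges Hsp70 with nucleotide, was at 400, 182 and 185 CPM with control and 60.3, 56.2 and 111 CPM with MR (-1.76 ± 0.30, edgeR adjusted p = 0.0125). Control replicate 1 was the highest library and MR replicate 3 the highest of its group, and the groups did not overlap. Chordc1, an Hsp90 co-chaperone, was at 297, 183 and 193 against 96.5, 99.4 and 113 CPM (-1.12 ± 0.18, edgeR adjusted p = 0.0125). Stip1, which hands clients from Hsp70 to Hsp90, was at 274, 180 and 173 against 96.4, 100 and 106 CPM (-1.05 ± 0.18, edgeR adjusted p = 0.0125). In both genes control replicate 1 again stood highest and the MR libraries were close together. Hsp90aa1, the inducible Hsp90, was at 318, 198 and 183 against 126, 136 and 131 CPM (-0.83 ± 0.19, edgeR adjusted p = 0.0434). Hspe1, the mitochondrial co-chaperonin Hsp10, was at 426, 418 and 495 against 199, 333 and 213 CPM (-0.84 ± 0.19, edgeR adjusted p = 0.0423), and here control replicate 3 was highest.

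The other chaperone genes that fell were Hspa4l (-1.22), another Hsp110, St13 (-0.85) and Ptges3 (-0.66), co-chaperones of Hsp70 and Hsp90, Dnaja1 (-0.82), an Hsp40, Fkbp4 (-0.76), an immunophilin of steroid receptor complexes, and Cacybp (-0.77), a binding partner of Siah1 and S100 proteins. Their edgeR adjusted p ranged from 0.0218 to 0.0438. Hspa8, the constitutive Hsp70, was at 1279, 1176 and 1330 against 837, 850 and 742 CPM without overlap, and did not pass (-0.64 ± 0.16, edgeR adjusted p = 0.0683). Hsf1 itself was at 102, 89.9 and 59.8 against 97.9, 71.4 and 105 CPM (0.12 ± 0.19, edgeR adjusted p = 0.772). Hspa1b, the strongly inducible Hsp70, was low in all libraries, at 4.94, 0.651 and 0.336 against 0.115, 0 and 0.841 CPM, and its near-identical copy could share reads with it. The calls depended on single libraries: 2 members fell without control replicate 1 and none without MR replicate 1, while the median stayed between -0.49 and -0.38 whichever library was left out.

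**Figure D2:**
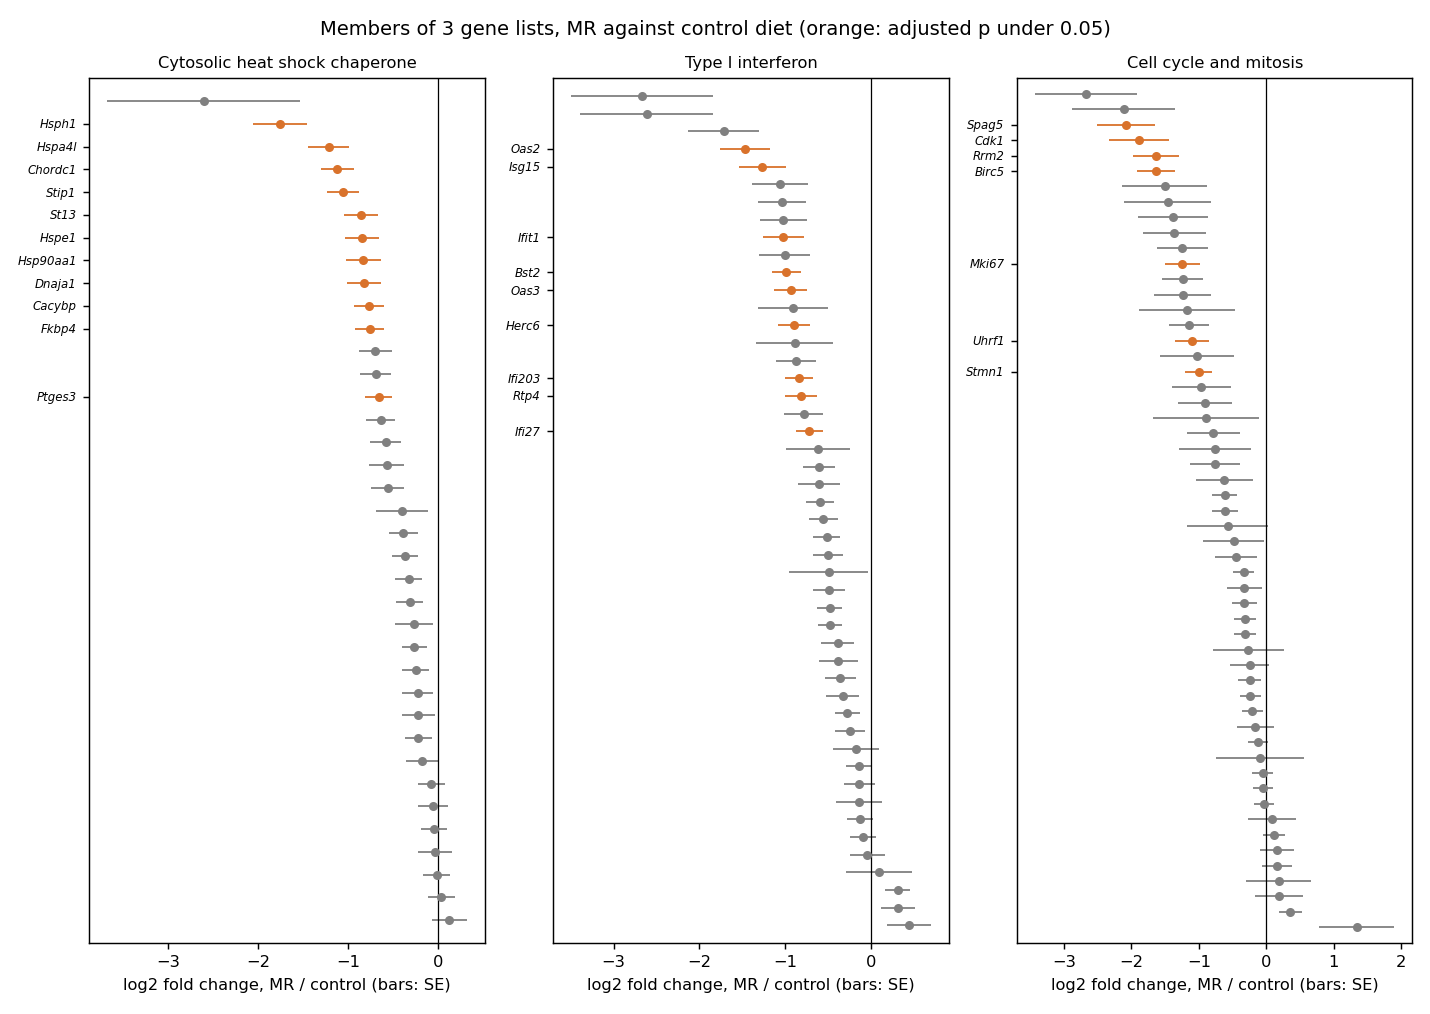
Log2 fold change of MR over control for each tested member of the cytosolic heat shock, type I interferon and cell cycle lists, with SE bars, orange and named where the edgeR adjusted p was under 0.05. In the 3 lists 35 of 37, 44 of 48 and 47 of 55 members lie below 0.

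The start regions of the chaperones that fell were searched for a 3-unit heat shock element, GAANNTTCNNGAA, on both strands, where its complement reads TTCNNGAANNTTC. The windows, from RefSeq on GRCm38.p6, run from 250 bases before to 50 after each annotated transcript start. The element stands in a window of 0.662% of the 27025 genes with one. It stands in 4 of the 31 list members with a window, and in 3 of the 9 that fell and have one. These 3 are shown because they carry both the motif and the change, with every match in capitals.
Hsph1: atgctgcagaTTCTGGAAAGTTC
Chordc1: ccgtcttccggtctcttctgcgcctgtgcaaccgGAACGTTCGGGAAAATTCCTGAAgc
Hspe1: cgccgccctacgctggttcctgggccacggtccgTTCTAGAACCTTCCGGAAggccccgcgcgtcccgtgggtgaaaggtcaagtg
They lie at chr5:149636288-149636310 on the minus strand, chr9:18292229-18292287 on the plus strand and chr1:55088025-55088110 on the plus strand. Counted from 0 at the first transcribed base, the matches span positions 36 to 48 in Hsph1, -4 to 18 in Chordc1 and -89 to -72 in Hspe1. Chordc1 holds 3 overlapping matches and Hspe1 holds 2. A match of letters describes the window, and a window without one says nothing of the factor.

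Of 27 tested chaperones and unfolded protein response genes of the endoplasmic reticulum 2 fell, beside 0.818% of all genes, and 8 were above 0 (median -0.22). Their summed level was 2539 to 2819 CPM with control and 2083 to 2174 CPM with MR. No member passed without control replicate 1, without control replicate 2 or without MR replicate 1. Hsp90b1, the Hsp90 of the endoplasmic reticulum that folds integrins and Toll-like receptors, was at 450, 491 and 435 CPM with control and 216, 288 and 244 CPM with MR (-0.88 ± 0.16, edgeR adjusted p = 0.0174). Pdia6, a protein disulphide isomerase, was at 128, 120 and 153 against 72.4, 97.6 and 80.5 CPM (-0.68 ± 0.16, edgeR adjusted p = 0.0459). Neither gene's groups overlapped. Hspa5, the reticulum's Hsp70 BiP, had overlapping groups at 187, 188 and 110 against 153, 124 and 139 CPM.

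The RNA-binding proteins Cirbp and Rbm3, which are induced by mild cold, moved the other way from the heat shock genes. Cirbp was at 74.6, 79.5 and 105 CPM with control and 243, 288 and 180 CPM with MR (1.45 ± 0.19, edgeR adjusted p = 0.00224). Rbm3 was at 166, 161 and 129 against 367, 345 and 261 CPM (1.09 ± 0.17, edgeR adjusted p = 0.00971). For both, every MR library exceeded every control library, and MR replicate 3 was the lowest of its group. Rbm3os, annotated on the strand opposite Rbm3, also rose (1.43 ± 0.31, edgeR adjusted p = 0.0356). The labels do not say that strand was kept, so reads of Rbm3 and Rbm3os cannot be told apart. Of the 8 genes in the cold-inducible list these 2 rose and none fell, beside 0.591% and 0.818% of all genes. The list median was 0.17, and 3 members were below 0, the lowest at -0.64. In 4 members the MR libraries lay wholly above the controls and in 1 wholly below, as in 11.5% and 10.9% of all genes. Rbm3 lost the call without MR replicate 1 (edgeR adjusted p = 0.0962).

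Type I interferon response genes were lower with MR. Interferon alpha and beta induce them through the ISGF3 complex, and they encode antiviral enzymes and sensors. Of 48 tested members 9 fell and none rose, beside 0.818% of all genes that fell, and the list median was -0.57 beside 0.01 over all genes. In 27 members the MR libraries lay wholly below the controls, as in 10.9% of all genes. The summed level was 3828, 3109 and 2973 CPM in the control libraries and 2259, 2227 and 2507 CPM in the MR libraries, without overlap. Isg15, a ubiquitin-like modifier, was at 57.4, 27.0 and 24.8 against 16.4, 16.8 and 12.3 CPM (-1.27 ± 0.27, edgeR adjusted p = 0.0349). Ifit1, which binds viral RNA, was at 92.2, 45.5 and 50.8 against 31.0, 37.3 and 24.7 CPM (-1.02 ± 0.24, edgeR adjusted p = 0.0450). Control replicate 1 was the highest library for both genes, well above the other controls.

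Ifi203, a DNA-sensing family member, was at 343, 281 and 246 CPM with control and 150, 159 and 178 CPM with MR (-0.84 ± 0.16, edgeR adjusted p = 0.0244). Bst2, the membrane protein tetherin, was at 217, 196 and 225 against 95.7, 137 and 89.8 CPM (-0.98 ± 0.17, edgeR adjusted p = 0.0152), and Ifi27 was at 137, 149 and 148 against 71.7, 91.9 and 101 CPM (-0.72 ± 0.16, edgeR adjusted p = 0.0362). For Bst2 and Ifi27 the 3 controls lay close together, unlike Isg15. The remaining 4 were the oligoadenylate synthetases Oas2 (-1.47) and Oas3 (-0.94), the ISG15 ligase Herc6 (-0.90) and the receptor transporter Rtp4 (-0.81), with edgeR adjusted p of 0.0254 to 0.0473. Ifit2 (0.32) and Lgals3bp (0.44) were among the 4 members above 0. No member passed without control replicate 1, where the median was -0.42, or without MR replicate 1, where it was -0.51. Of 30 tested genes of the related interferon gamma and MHC class I list, only the guanylate binding protein Gbp3 fell (-0.88 ± 0.20, edgeR adjusted p = 0.0434). This is to be read beside the 0.818% of all genes that fell, and the list median was -0.24.

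The interferon-stimulated response element, written as GAAANNGAAA with the complement TTTCNNTTTC, was searched in the same windows on both strands. It is found for 3.99% of all genes, for 20 of the 34 interferon list members with a window and for 5 of the 6 that fell and have one. Neither this motif nor the heat shock element contains the other. Isg15, Ifit1 and Oas3 are shown as members that fell, with matches in capitals.
Isg15: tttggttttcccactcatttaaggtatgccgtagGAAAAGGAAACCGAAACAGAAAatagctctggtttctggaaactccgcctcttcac
Ifit1: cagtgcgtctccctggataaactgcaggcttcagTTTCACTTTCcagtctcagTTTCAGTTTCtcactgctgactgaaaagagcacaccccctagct
Oas3: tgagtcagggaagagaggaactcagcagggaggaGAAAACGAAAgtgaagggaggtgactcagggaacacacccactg
They lie at chr4:156200841-156200930 on the minus strand, chr19:34640751-34640847 on the plus strand and chr5:120777691-120777768 on the minus strand. The matches span positions -78 to -57, -104 to -76 and -75 to -66 from the start. Isg15 holds 3 overlapping matches and Ifit1 holds 2 separate ones.

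Genes of the cell cycle were lower with MR. Of 55 tested members 7 fell and none rose, beside 0.818% of all genes that fell, and the list median was -0.61 beside 0.01 over all genes. Summed over the list, the level was 1336, 1174 and 1263 CPM in control replicates 1, 2 and 3 and 995, 1147 and 1006 CPM in MR replicates 1, 2 and 3, with MR replicate 2 just below the lowest control. Mki67, the Ki-67 marker of cycling cells, was at 52.7, 33.3 and 39.0 CPM with control and 10.4, 18.0 and 24.5 CPM with MR (-1.24 ± 0.26, edgeR adjusted p = 0.0295). Birc5, the chromosomal passenger survivin, was at 11.6, 10.9 and 13.6 against 2.89, 3.72 and 4.98 CPM (-1.63 ± 0.29, edgeR adjusted p = 0.0152). Stmn1, which destabilises microtubules, was at 33.6, 26.4 and 34.0 against 14.2, 20.2 and 12.5 CPM (-1.004 ± 0.21, edgeR adjusted p = 0.0294). In all 3 genes the groups were separate.

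The mitotic kinase Cdk1 was at 5.19, 3.91 and 4.03 CPM with control and 0.866, 1.11 and 1.56 CPM with MR (-1.89 ± 0.44, edgeR adjusted p = 0.0456), and the spindle protein Spag5 was at 4.94, 4.34 and 3.90 against 0.924, 1.04 and 1.14 CPM (-2.08 ± 0.43, edgeR adjusted p = 0.0294). Rrm2, the small subunit of ribonucleotide reductase, changed by -1.64 ± 0.34 and Uhrf1, which directs maintenance of DNA methylation, by -1.10 ± 0.25, both with groups apart (edgeR adjusted p = 0.0294 and 0.0402). The replication genes Pcna (-0.24) and Mcm2 (-0.32) had overlapping groups and did not pass. One member fell without control replicate 1 and none without MR replicate 1, with medians of -0.44 and -0.61. In bulk RNA such as this, fewer cells of a type and less RNA per cell cannot be told apart, and this holds for each list described. The cell cycle homology region TTTGAA, read on both strands, was in the window of 27 of 47 members, of 3 of the 6 that fell and have a window, and of 20.2% of all genes.

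Markers of other spleen cells moved with these groups in part. The dendritic cell list, lower in 16 of 18 tested members (median -0.48, 1 past the test, which is Bst2), summed to 388 to 563 CPM with control and 251 to 373 CPM with MR. The CD4 and regulatory T cell list, lower in 11 of 15 (median -0.36, none past the test), summed to 323 to 388 against 230 to 308 CPM. Neither sum overlapped between the diets. In the CD4 and regulatory list, Foxp3 and Gata3 (-0.65) were lower in every MR library and Gpr83 (0.72) was higher in each. Cd4 itself (-0.02) had overlapping groups. NK cell markers, lower in 17 of 20 (median -0.42), summed to 479 to 785 against 311 to 525 CPM, and the NK receptor gene Klre1 fell from 36.2, 28.3 and 52.9 to 7.28, 19.6 and 16.5 CPM (-1.44 ± 0.30, edgeR adjusted p = 0.0294). B cell markers, lower in 15 of 17 (median -0.93, none past the test), summed to 142 to 532 against 145 to 286 CPM, and the macrophage list, lower in 14 of 24 (median -0.13), to 708 to 1174 against 592 to 1086 CPM. Lyz2, the macrophage lysozyme, fell from 49.6, 26.3 and 57.4 to 23.3, 21.1 and 9.49 CPM (-1.30 ± 0.30, edgeR adjusted p = 0.0456). These last 3 sums overlapped. The single calls in the dendritic cell, NK cell and macrophage lists are to be read beside the 0.818% of all genes that fell.

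Control replicate 3 held the highest sum of the B cell, NK cell, dendritic cell, macrophage and CD4 lists. Without it the medians were -0.32 for B cell, -0.05 for NK cell, -0.18 for dendritic cell, -0.06 for macrophage and -0.29 for CD4 and regulatory T cell markers. The heat shock, interferon and cell cycle medians without it were -0.42, -0.59 and -0.67, and 11, 11 and 7 of their members fell. Defining markers were not at 0: the B cell gene Cd79a ranged from 4.07 to 30.8 CPM, the NK receptor gene Ncr1 from 10.5 to 25.6 CPM and the dendritic integrin gene Itgax from 17.1 to 44.1 CPM over the 6 libraries. In these 5 lists, Zbtb46 of the dendritic list and Lrrc32 of the CD4 and regulatory list were at 0 in at least 1 library. The part of these other cells in the lower interferon, chaperone and cell cycle levels was not tested. Markers of plasma cells (median -0.28), neutrophils and mast cells (0.56), red cells and platelets (-0.21), gamma delta T cells (-0.50) and stroma (-0.66) had no member past the test. Without control replicate 3 these medians were -0.28, 0.92, 0.11, -0.46 and 0.10.

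**Figure D3:**
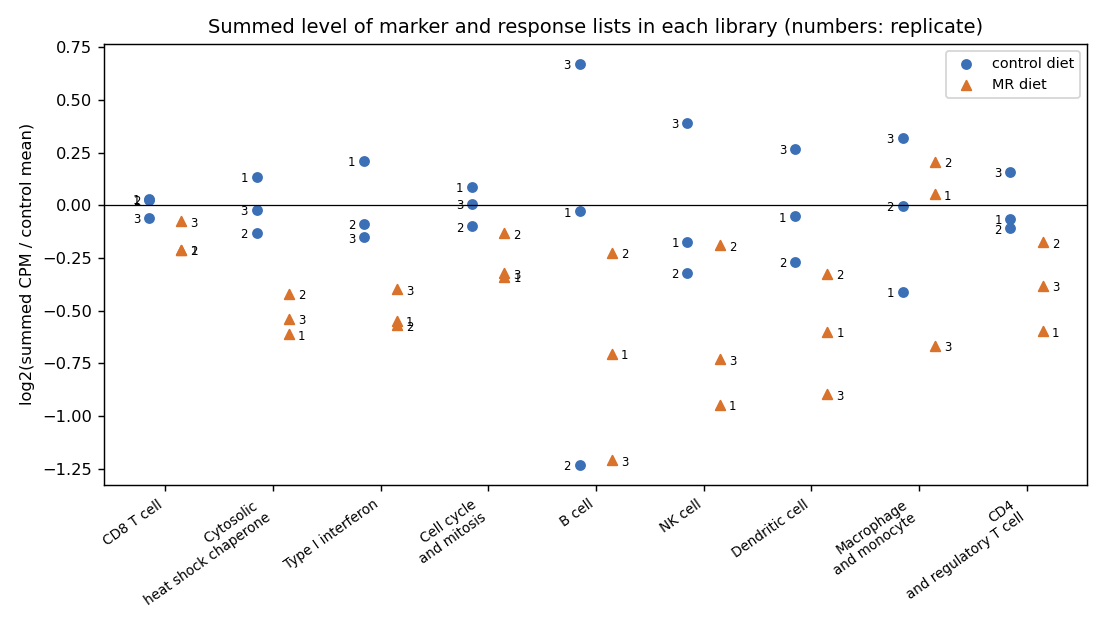
Summed CPM of 9 gene lists in each library, as log2 of the ratio to the mean of the 3 control libraries, with control libraries as circles and MR libraries as triangles, numbered by replicate. The CD8 T cell, heat shock, interferon, cell cycle, dendritic cell and CD4 sums of the MR libraries lie below all controls. Control replicate 3 lies highest in the B cell, NK cell, dendritic cell, macrophage and CD4 lists.

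Genes of T cell effector function stood mostly below their control level, but none of the 28 tested passed (median -0.58). Below 0 were 25 of them, beside 49.6% of all genes, and 13 lay lower without overlap, beside 10.9%. Their summed level was 1971 to 2127 CPM with control and 1613 to 1712 CPM with MR. Tbx21, the regulator T-bet, was at 49.7, 56.9 and 57.6 CPM with control and 33.3, 41.0 and 34.7 CPM with MR (-0.59 ± 0.15, edgeR adjusted p = 0.0714). Eomes, its relative in memory CD8 and NK cells and a member of the NK list, was at 105, 129 and 129 against 53.6, 85.4 and 80.2 CPM (-0.73 ± 0.18, edgeR adjusted p = 0.0545). Cx3cr1, a receptor of effector cells, was at 8.48, 9.66 and 16.3 against 3.002, 5.67 and 5.95 CPM. These groups did not overlap. Of the killing genes, perforin (Prf1) was at 25.7, 29.1 and 24.5 against 30.1, 21.9 and 22.5 CPM, and granzyme B (Gzmb) was at 9.36, 11.1 and 5.91 against 5.20, 8.22 and 4.92 CPM, both with overlap. Without MR replicate 2, 6 genes of this list fell, and without any other single library none did.

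Of 28 activation genes none passed (median -0.36), with 25 below 0 and 12 lower without overlap, beside the same 49.6% and 10.9% of all genes. They summed to 1467 to 1594 CPM with control and 1193 to 1364 CPM with MR. Cd69, an early activation marker that holds cells in tissue, was at 163, 129 and 120 against 91.6, 96.9 and 101 CPM (-0.51 ± 0.15, edgeR adjusted p = 0.106). Nfkbia, the inhibitor that NF-kappaB induces, was at 238, 238 and 231 against 139, 171 and 178 CPM (-0.53 ± 0.15, edgeR adjusted p = 0.0853). Neither overlapped. Of 28 immediate-early genes 1 fell, beside 0.818% of all genes, and the list median was -0.28. Below 0 were 25 of them and 11 lay lower without overlap, beside the same 49.6% and 10.9%, while 1 lay higher without overlap. They summed to 4214 to 4615 CPM with control and 3486 to 4000 CPM with MR. Gadd45b, a stress-induced regulator of MAP kinase signalling, fell from 18.1, 24.2 and 21.8 to 8.95, 7.11 and 12.3 CPM (-1.17 ± 0.23, edgeR adjusted p = 0.0254). Of 13 tested checkpoint receptors none changed (median -0.14).

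Genes of naive and memory cells had a median of 0.09 over 26 members, of which 1, Bcl2, rose, beside 0.591% of all genes. In 4 members the MR libraries lay wholly below the controls and in 1 wholly above, beside 10.9% and 11.5% of all genes. The lowest fold change, -0.73, was that of Eomes. Bcl2, the survival protein that interleukin-7 maintains in resting T cells, was at 235, 268 and 244 CPM with control and 439, 463 and 356 CPM with MR (0.75 ± 0.16, edgeR adjusted p = 0.0302). All MR libraries exceeded all controls. Its call was lost without any 1 of the 3 controls or without MR replicate 1 (edgeR adjusted p up to 0.212). The homing receptor gene Ccr7 (0.18) and the transcription factor gene Tcf7 (0.32) had overlapping groups and did not pass. Of 25 genes of the Bcl2 family, 18 were below 0 (median -0.26), beside 49.6% of all genes. Bcl2 was the one that passed, beside 1.41% called over all genes.

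The methionine cycle and salvage list held 26 tested genes, of which none changed (median 0.13). Mat2a, which makes S-adenosylmethionine and whose transcript rises in cultured cells short of it, was at 157, 123 and 115 CPM with control and 125, 113 and 75.0 CPM with MR (-0.34 ± 0.19, edgeR adjusted p = 0.376). Mtr, methionine synthase, was at 10.8, 13.3 and 14.2 against 14.0, 10.6 and 13.2 CPM, and Ahcy, which clears S-adenosylhomocysteine, was at 25.8, 21.3 and 20.0 against 26.0, 27.4 and 26.9 CPM (0.26 ± 0.17, edgeR adjusted p = 0.461). Mat2a and Mtr overlapped and Ahcy did not. At unadjusted p under 0.05, Oaz2, the antizyme that limits polyamine synthesis, was the list member of lowest p (0.36 ± 0.16, edgeR adjusted p = 0.248).

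Of 32 tested arginine and RNA methyltransferases 1 rose, Carm1, which methylates histone H3 and splicing factors on arginine. It was at 43.3, 50.4 and 48.8 CPM with control and 88.5, 62.2 and 84.4 CPM with MR (0.72 ± 0.16, edgeR adjusted p = 0.0379). Of 42 enzymes of histone and DNA methylation 1 rose, Tet1, which oxidises 5-methylcytosine. It was at 10.2, 10.9 and 11.3 against 21.8, 18.5 and 18.4 CPM (0.86 ± 0.20, edgeR adjusted p = 0.0426). Both had separate groups. The medians of the 2 lists were 0.04 and 0.01, and 1 call in 32 and 1 in 42 is to be read beside the 1.41% called over all genes. Carm1 and Tet1 each kept the call when MR replicate 2 was left out, and lost it without any other single library.

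Amino acid shortage is sensed through GCN2 and ATF4 and through mTORC1. Atf4 was at 353, 337 and 416 CPM with control and 264, 351 and 330 CPM with MR, with overlap. None of the 22 tested members of the ATF4 list changed (median -0.10). Trib3, a pseudokinase target of ATF4, was at 1.34, 1.79 and 1.14 against 4.73, 3.65 and 3.60 CPM without overlap (1.48 ± 0.43, edgeR adjusted p = 0.0981). Asns, asparagine synthetase, lay between 0 and 0.617 CPM and was below the filter. None of 20 amino acid transporters (median 0.20) passed, among them the methionine carriers Slc7a5, at 26.9, 24.9 and 26.1 against 37.5, 24.4 and 27.6 CPM, and Slc43a2, at 64.7, 62.8 and 70.7 against 80.8, 79.3 and 73.4 CPM (0.24 ± 0.14, edgeR adjusted p = 0.395). Slc7a5 overlapped and Slc43a2 did not. Of 23 aminoacyl-tRNA synthetases none passed (median 0.10), although 7 had MR libraries wholly above the controls, beside 11.5% of all genes. Iars, the isoleucine enzyme, was at 37.1, 42.5 and 24.7 against 58.5, 50.3 and 56.5 CPM (0.66 ± 0.19, edgeR adjusted p = 0.0856). None of 37 mTORC1 and amino acid sensing genes passed (median 0.01).

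The metabolic lists lay close to the median of all genes and had no call: glycolysis (30 genes, median 0.08), nuclear respiratory chain (70, -0.02), tricarboxylic acid cycle and fatty acid oxidation (40, 0.01), sterol and fatty acid synthesis (37, 0.15), cytosolic ribosomal proteins (78, 0.03) and proteasome (34, -0.06). The summed level was higher in each MR library for glycolysis (2830 to 2960 CPM with control, 2965 to 3284 with MR) and for sterol and fatty acid synthesis (1391 to 1535 CPM with control, 1554 to 1675 with MR). Myc was at 142, 157 and 137 against 133, 125 and 150 CPM, with overlap. No call was made either in T cell receptor signalling (median -0.07), chemokine receptors (-0.13), cytokine receptors (-0.08), interferon receptors and pathway inhibitors (-0.03), cell cycle inhibitors (-0.10), serine and folate metabolism (0.02), glutathione and thioredoxin metabolism (0.06), ribosome biogenesis (0.06) or the sex-linked genes (0.01). Below all controls were 8 of 21 cell cycle inhibitors, 9 of 31 chemokine receptors and 7 of 27 T cell receptor signalling genes. So were 4 of 16 interferon receptors and pathway inhibitors, each share to be read beside 10.9% of all genes. In the same order 4, 2, 2 and 1 members lay above all controls, beside 11.5% of all genes. Ribosomal proteins had no member without overlap, beside 22.4% of all genes. Their summed level ranged from 141163 to 224378 CPM with MR, wider than the 168331 to 210765 CPM with control.

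In the glucocorticoid target list of 22 tested genes, Fkbp5, a co-chaperone that glucocorticoid induces, rose from 80.6, 72.0 and 51.3 to 167, 167 and 107 CPM (1.11 ± 0.20, edgeR adjusted p = 0.0172). Every MR library was above every control library, and the call was lost without MR replicate 1. Fkbp5 was the 1 call in this list, beside 0.591% of all genes that rose, and the list median was 0.05. The list's summed level was 2959 to 3616 CPM with control and 3686 to 3763 CPM with MR, without overlap. In 4 members the MR libraries lay wholly above the controls and in 2 wholly below, as in 11.5% and 10.9% of all genes. Tsc22d3 (GILZ), another such target, overlapped at 707, 429 and 836 against 597, 879 and 626 CPM. In the circadian clock list of 19 tested genes, the repressor Per2 rose from 10.1, 9.99 and 7.79 to 20.0, 13.6 and 21.7 CPM (0.99 ± 0.23, edgeR adjusted p = 0.0476), and the list median was 0.18. Per3 (0.98 ± 0.32) and Nr1d1 (0.65 ± 0.23) were also higher in every MR library and did not pass (edgeR adjusted p = 0.133 and 0.161). Per2 was the 1 call in 19, beside 0.591% of all genes that rose. In the clock list 4 members lay wholly above the controls and 1 wholly below, beside 11.5% and 10.9% of all genes. Below 0 were 6 members, the lowest at -0.43. The labels give no hour of collection. Per2 kept its call when MR replicate 2 was left out and lost it without any other single library.

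**Figure D4:**
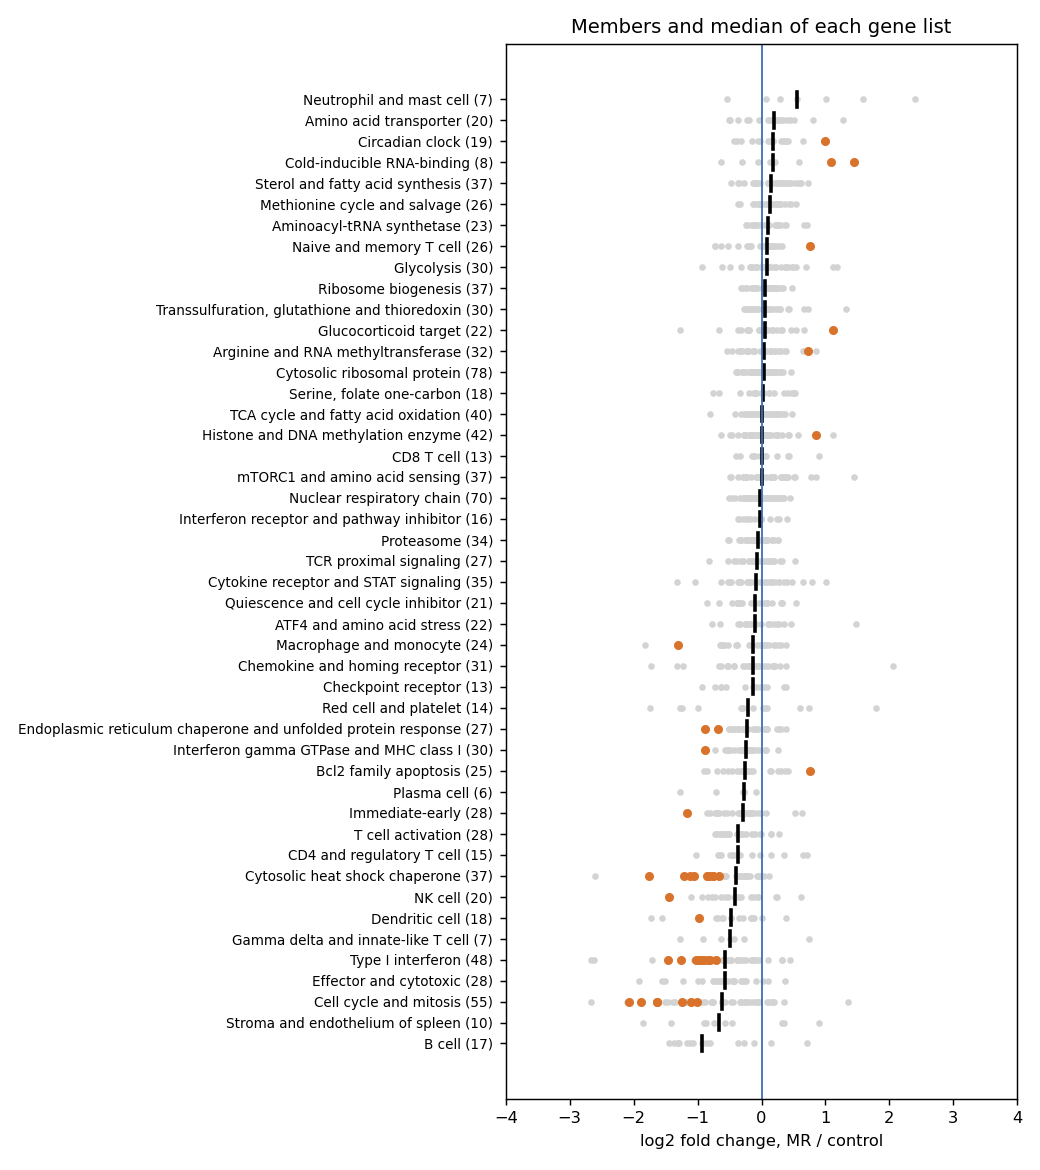
Log2 fold change of MR over control for the members of the 46 gene lists with at least 5 tested genes (numbers in brackets), each gene a dot, orange where the edgeR adjusted p was under 0.05. The black bar is the list median and the blue line the median of all 12348 genes. The interferon, cell cycle and heat shock lists carry most of the orange dots, all below 0, and the B cell median is the lowest.

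The effect of diet in CD8 T cells was then compared with that in tumours, in a joint edgeR fit with a term for the difference between materials. That fit shares each gene's estimate of spread between T cells and tumours. An SE of a difference can therefore be smaller than that of the T cell effect fitted alone. Of 12413 genes tested in all 3 tables, the effect differed from that in MC38 tumours for 634 (5.11%) and from that in BPD6 tumours for 157 (1.26%). With limma-voom these counts were 342 and 0, so the BPD6 differences rest on the count model. The called genes named below were chosen by their change in the T cell libraries, which enter the difference again. Differences among them are therefore partly set by that choice. For Trnp1 the joint fit gave log2 fold changes of 2.40 in T cells, -0.02 in MC38 and 0.21 in BPD6, and the T cell effect exceeded both (by 2.43 ± 0.38 and 2.19 ± 0.43, edgeR adjusted p = 0.00226 and 0.0155). Lman2l changed by -0.02 in MC38 and -0.34 in BPD6, and its T cell effect was lower than both by -1.70 ± 0.29 and -1.38 ± 0.30 (edgeR adjusted p = 0.00426 and 0.0300). Rbm3 changed by 0.29 and 0.10, and the difference passed against both models (0.81 and 0.99, edgeR adjusted p = 0.0321 and 0.0300). For Cirbp the differences were 1.03 and 1.05 and did not pass (edgeR adjusted p = 0.0590 and 0.123).

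**Figure D5:**
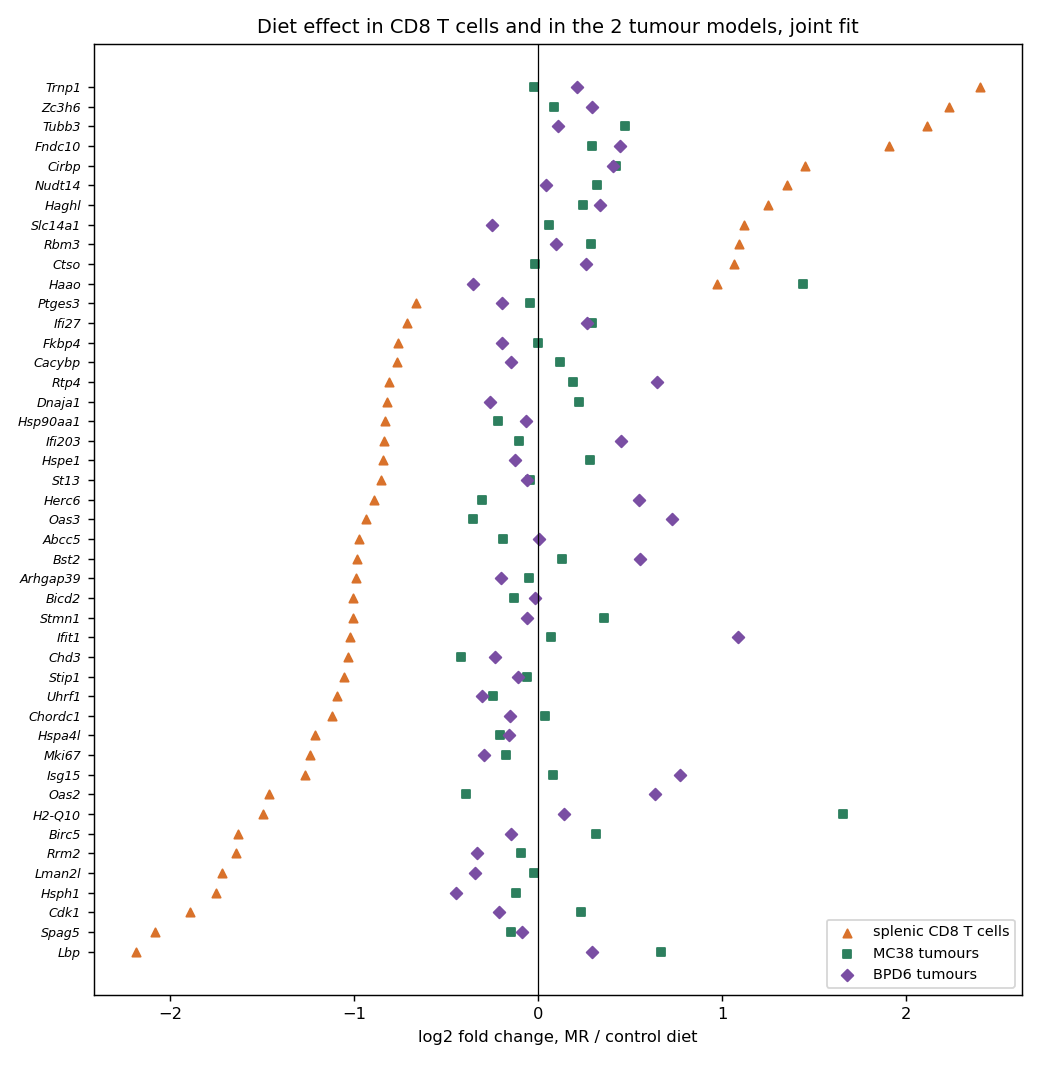
Log2 fold change of MR over control diet from the joint fit for the called genes present in all 3 tables, out of the 24 of lowest p and the members of the heat shock, interferon and cell cycle lists, in CD8 T cells (triangles), MC38 tumours (squares) and BPD6 tumours (diamonds). In BPD6 the 9 interferon genes lie above 0, and in MC38 Haao and H2-Q10 lie above 1.

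The cell cycle genes Cdk1, Spag5 and Birc5 differed from both tumour models. Cdk1 was at 0.23 in MC38 and -0.21 in BPD6, Spag5 at -0.15 and -0.09, and Birc5 at 0.32 and -0.15, beside T cell effects of -1.89, -2.08 and -1.63. Of the interferon genes, Ifi27, at 0.29 in MC38 and 0.27 in BPD6, differed from both (edgeR adjusted p = 0.0105 and 0.0269). Ifit1, Isg15 and Oas2 differed from BPD6, where they were at 1.09, 0.77 and 0.63, and for these 3 the difference from MC38 did not pass. Of the chaperones, Hsph1, Chordc1, Stip1, St13 and Dnaja1 differed from MC38 and Hspa4l from both. Carm1 was at -0.27 and -0.01 in the tumours and differed from both (0.99 and 0.73, edgeR adjusted p = 0.00215 and 0.0290), while for Tet1, at 1.16 and 0.57, neither difference passed (-0.30 ± 0.80 and 0.29 ± 0.73, edgeR adjusted p = 0.857 and 0.900). The labels of the tumour libraries name tumour cells. If these libraries also held stromal and immune cells, which was not tested, their values are averages over cell types.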

How the data were processed

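RNA of CD8 T cells was captured on poly-T beads, per the labels' protocols, and sequenced on an Illumina platform, with aligner and counter not given in the sources used here. Estimated counts per gene and library were deposited by the authors without normalization, on GRCm38 (mm10) per the submitters' processing notes. Values are multiples of 0.5, and 41.0% are not whole. They were rounded to whole numbers for testing. Another 21 columns of values, counted over the 3 tables together and named like the count columns, and the authors' result columns were not used.

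Genes were kept by filterByExpr (count of about 10), scaled by TMM and tested with edgeR 4.0.16 (glmQLFit, R 4.3.3) in the 6 libraries; the comparison with tumours used a joint fit of all 21 libraries with an interaction term. limma-voom (limma 3.58.1) and DESeq2 1.42.0 were alternatives. Genes named are the 12 of lowest p in each direction (at least 1 CPM in the higher group, groups apart), each list member past the test or some of lowest p, and a fixed set of T cell, methionine and stress genes; Ifit2, Lgals3bp, Hsf1, Hspa1b, Hspa5, Rbm3os, Pcna, Mcm2, Per3, Nr1d1, Tsc22d3, Cd79a, Ncr1 and Itgax were added after their values were seen. A few genes that this rule names are not reported here. The members and the 47 lists were chosen with earlier results of these data known. Start regions came from RefSeq (GRCm38.p6). In counts simulated for the T cell comparison with 200 of 12141 genes changed by a log2 of 1, edgeR recovered 65.0%, and 8.45% of its calls were false. Replicates of 1 diet differed by far more than counting noise (chi-square per degree of freedom at least 13.2), so none was merged.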

Additional observations from a re-analysis of the deposited data

Results flagged for a closer look

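Of the 59 named genes that changed in CD8 T cells, 32 had an effect of diet that differed from that in a tumour model by the interaction test of the joint edgeR fit (47 differences with adjusted p under 0.05, 28 against MC38 and 19 against BPD6). Over all 12413 genes tested, 5.11% differed from MC38 and 1.26% from BPD6. The 59 genes were chosen by their T cell change, and the same T cell libraries enter the difference. A higher share among them is therefore partly set by that choice. Values are the T cell log2 fold change minus the tumour's. Among the 24 genes of lowest p, the difference from MC38 was 2.43 for Trnp1, 1.03 for Nudt14, 2.14 for Zc3h6, 0.81 for Rbm3 and 1.08 for Ctso. On the lower side it was -1.70 for Lman2l, -0.87 for Bicd2, -0.94 for Arhgap39, -0.78 for Abcc5 and -3.15 for H2-Q10. Against BPD6 it was 2.19 for Trnp1, 1.31 for Nudt14, 1.94 for Zc3h6, 0.99 for Rbm3, -1.38 for Lman2l, -0.99 for Bicd2 and -0.98 for Abcc5.

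Of the chaperone genes, the difference from MC38 was -1.16 for Chordc1, -1.63 for Hsph1, -0.99 for Stip1, -1.01 for Hspa4l, -0.81 for St13 and -1.04 for Dnaja1, and the difference from BPD6 was -1.06 for Hspa4l. Of the interferon genes, it was -1.01 for Ifi27 against MC38, and against BPD6 -2.10 for Oas2, -2.04 for Isg15, -0.98 for Ifi27 and -2.11 for Ifit1. Of the cell cycle genes, it was -1.95 for Birc5, -1.36 for Stmn1, -1.93 for Spag5, -1.55 for Rrm2 and -2.12 for Cdk1 against MC38. Against BPD6 it was -1.48 for Birc5, -0.94 for Stmn1, -2.00 for Spag5 and -1.68 for Cdk1. Of the other lists, the difference from MC38 was -0.89 for Hsp90b1, -0.86 for Pdia6, 0.99 for Carm1, 0.96 for Bcl2, 1.66 for Per2 and -2.39 for Lyz2, and the difference from BPD6 was -0.85 for Hsp90b1, 0.73 for Carm1 and 1.20 for Fkbp5. The lowest edgeR adjusted p was that of Spag5 (0.000321 against BPD6), and the differences of Stmn1 and Oas2 from BPD6 lay near the threshold (0.0499 and 0.0493). The joint fit shares each gene's estimate of spread between materials. For Spag5 the SE of the difference from BPD6 was 0.22, beside 0.43 for the T cell effect fitted alone. For Cdk1 these were 0.28 and 0.44, so the low adjusted p of both genes rests on the shared spread. With limma-voom no gene passed against BPD6. Tumour libraries may average over several cell types, and the T cell libraries also carried markers of other cells, so material and cell make-up cannot be told apart in these differences.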

How the results depend on the processing

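The 174 changed genes (73 higher, 101 lower) became 596 (276, 320) with DESeq2, and 7 to 290 (6 to 140 higher, 1 to 150 lower) when 1 library was left out, with the low end without MR replicate 1 and the high end without MR replicate 2. Genes differing from MC38 numbered 634, or 342 with limma-voom and 248 to 897 with 1 T cell library left out; for BPD6 they were 157, 0 and 66 to 298. Other scalings, filters and limma-voom kept the T cell counts within 1.5 times. The replicate numbers did not pair the libraries (correlations of deviations 0.04, -0.18 and -0.15); with a replicate block 74 genes passed (31 higher, 43 lower), 73 of them among the 174. Some genes without a call turned sign. With upper quartile factors Cd4 stood at 0.0041 and Mtr at 0.0021, and with the replicate block Pdcd1 stood at 0.057. With 1 library left out, Cd4 ranged from -0.41 to 0.42, Mtr from -0.13 to 0.094, Pdcd1 from -0.53 to 0.77, Eif2s3y from -0.050 to 0.16, Il7r from -0.028 to 0.31 and S1pr1 from -0.043 to 0.22. The cause of these shifts was not tested. Of the 47 interactions of called genes, 333 of 423 values under 9 alternatives passed and 0 reversed. With 3 libraries per diet, changes of a log2 of 1 were often missed in simulation, so a gene without a call may have changed. Cirbp, Trnp1, Nudt14, Syt6, Slc14a1, Zc3h6 and Lman2l passed under each alternative.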
